A study of Mus musculus with 3 samples.

Results

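The heavy chain variable (V) segments of mouse splenic B cells were described by how many cells used each of them. Members were the gene symbols beginning Ighv with at least 10 unique molecular identifiers (UMIs, counted transcript molecules) summed over the transcript matrix: 96 of 183 such symbols, in 15 numbered families, among 32285 genes. The cells came from the spleens of 3 LDHA-sufficient mice, whose hashtags carry the label WT, and 3 LDHA-deficient mice, labelled KO. LDHA is lactate dehydrogenase A, which turns pyruvate into lactate. Cells of each mouse carried their own oligonucleotide hashtag, were sorted as viable B cells and on GL7, a surface glycan that rises on B cells of the germinal centre (GC), and were run together on 1 lane of 10x Genomics 5′ chemistry with a heavy chain library. Mice are the replicates in every comparison. The sources used here do not give strain, age, the driver of the deletion or any immunization, so neither the cells that lack LDHA nor the antigen can be named. For the hashtag and heavy chain libraries the labels also mention hematopoietic progenitors, whereas the sort and the titles name B cells. The B lineage genes Cd79a, Cd79b, Ms4a1 and Pax5 were all detected in the cells counted here.

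A B cell makes its heavy chain gene once, during development, by joining 1 V, 1 diversity (D) and 1 joining (J) segment with the RAG recombinase, and allelic exclusion leaves most cells with 1 expressed heavy chain. The V segment encodes 2 of the 3 antigen-contacting loops, the complementarity determining regions CDR1 and CDR2. The third, CDR3, lies across the junction of V, D and J. Segments of 1 family are alike in sequence. In the germinal centre the rearranged V is mutated, and class switching exchanges the constant region without exchanging the V. Use of V segments is therefore a count of cells, not of transcripts: a plasma cell may hold many times the heavy chain RNA of a resting cell and still uses 1 segment.

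The stretch from CDR1 to CDR2 shows what the leading segments bring to the binding site. It is printed for the 10 segments used by most cells and for Ighv6-6 and Ighv1-50. The sequences are the germline alignments of the deposited heavy chain contigs, 5′ to 3′, with CDR1 (first) and CDR2 (last) in capitals. All 96 members lie on the minus strand of chromosome 12 between 113578504 and 116000461 (GENCODE vM21 annotation of mm10), a span of 2422 kb.
Ighv3-6: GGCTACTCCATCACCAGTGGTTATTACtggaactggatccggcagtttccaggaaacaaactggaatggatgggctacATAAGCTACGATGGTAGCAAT
Ighv1-26: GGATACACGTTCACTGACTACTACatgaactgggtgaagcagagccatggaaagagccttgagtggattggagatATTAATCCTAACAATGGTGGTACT
Ighv1-64: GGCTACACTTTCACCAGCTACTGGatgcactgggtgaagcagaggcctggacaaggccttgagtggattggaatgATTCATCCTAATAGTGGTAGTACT
Ighv1-9: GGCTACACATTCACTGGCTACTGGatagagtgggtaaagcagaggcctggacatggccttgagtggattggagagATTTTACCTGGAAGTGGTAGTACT
Ighv1-72: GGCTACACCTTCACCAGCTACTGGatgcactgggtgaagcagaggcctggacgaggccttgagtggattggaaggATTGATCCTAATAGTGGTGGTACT
Ighv9-3: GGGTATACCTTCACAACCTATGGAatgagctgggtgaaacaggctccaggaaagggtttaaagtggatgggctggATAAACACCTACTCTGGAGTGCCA
Ighv8-8: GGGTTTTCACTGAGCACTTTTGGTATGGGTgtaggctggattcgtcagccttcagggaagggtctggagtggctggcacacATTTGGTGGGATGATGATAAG
Ighv1-80: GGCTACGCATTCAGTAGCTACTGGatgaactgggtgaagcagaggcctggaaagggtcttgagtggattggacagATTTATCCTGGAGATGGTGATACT
Ighv6-3: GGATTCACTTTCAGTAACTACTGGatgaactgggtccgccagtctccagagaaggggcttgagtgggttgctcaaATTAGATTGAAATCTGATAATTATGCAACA
Ighv10-1: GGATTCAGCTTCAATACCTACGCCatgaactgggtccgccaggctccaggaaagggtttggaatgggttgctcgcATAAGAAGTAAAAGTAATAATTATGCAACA
Ighv6-6: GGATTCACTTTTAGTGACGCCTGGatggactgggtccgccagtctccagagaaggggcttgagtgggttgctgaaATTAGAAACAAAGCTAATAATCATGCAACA
Ighv1-50: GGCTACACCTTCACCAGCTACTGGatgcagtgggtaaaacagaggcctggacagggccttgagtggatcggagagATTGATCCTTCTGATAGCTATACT

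The genes of these segments lie at chr12:114288152-114288582 (Ighv3-6), chr12:114788372-114788805 (Ighv1-26), chr12:115507545-115508031 (Ighv1-64), chr12:114583569-114584002 (Ighv1-9), chr12:115757984-115758461 (Ighv1-72) and chr12:114140692-114141122 (Ighv9-3). Ighv8-8 lies at chr12:115294062-115294504, Ighv1-80 at chr12:115912344-115912776, Ighv6-3 at chr12:114391712-114392169, Ighv10-1 at chr12:114479005-114479451, Ighv6-6 at chr12:114434788-114435244 and Ighv1-50 at chr12:115119748-115120219. Among the segments called in the contigs, CDR2 was 30 bases long in families 6, 7, 10 and 13 and 21 to 24 bases in every other family with a contig. CDR1 was 24 bases in every family but 3 (27 to 30), 8 (30) and 15 (27). Of the printed segments, Ighv8-8 has the longest CDR1, and Ighv6-3, Ighv6-6 and Ighv10-1 have the longest CDR2.

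The transcript matrix held 2836 barcodes and 2831 of them had hashtag counts: 1843 carried 1 hashtag, 794 (28.0%) more than 1 and 194 none. After filters 1743 B cells with 1 hashtag were counted, with a median of 3985 UMIs, and barcodes with more than 1 hashtag were left out as doublets. Total UMIs per mouse ranged from 1114808 to 2228428. Ldha, the targeted gene, lay between 159 and 241 CPM (UMIs relative to the total of the mouse) in the LDHA-sufficient mice and between 50.6 and 67.7 in the LDHA-deficient mice (log2 difference -1.90, SE 0.17, edgeR quasi-likelihood adjusted p = 0.00026). GC B-like cells were unevenly spread: 61, 74 and 15 in LDHA-sufficient mice 1 to 3 and 8, 6 and 5 in LDHA-deficient mice 1 to 3. Whether the sort or the genotype made this difference was not tested. The summed CPM of 7 myeloid markers were 192 to 203 in LDHA-sufficient and 201 to 213 in LDHA-deficient mice, and none of the 7 was at 0. The heavy chain library gave 2241 contigs on 2014 barcodes, of which 1730 were also in the transcript matrix, with a median of 13 UMIs per contig.

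A cell was assigned to the member with most of its Ighv UMIs when that member had at least 2 UMIs and at least 70% of them. Of the 1743 B cells, 1029 (59.0%, 95% Clopper-Pearson interval 56.7 to 61.4%) were assigned, and 83 of the 96 members had at least 1 cell. The median B cell held 5 Ighv UMIs, and 96.0% held at least 1. The 60 cells of other lineages give the background of free RNA: 51.7% held an Ighv UMI, with a median of 1, at a median depth of 4268 UMIs, and 3 of them (5%) were assigned. Intervals here and below cover counting error only.

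The contigs, from a separate library of the same cells, were the check. In 817 B cells with both calls, the segment was the same in 790 (96.7%, interval 95.2 to 97.8%) and the family in 98.0%. The share was 98.9% among cells with at least 90% of their Ighv UMIs in 1 member and 93.3% in GC B-like cells. One difference recurred: 7 cells read as Ighv2-6 by transcripts had contigs called Ighv2-6-1 or Ighv2-6-2. Each of the other 20 pairs of differing calls was seen in 1 cell. Neither Ighv2-6-1 nor Ighv2-6-2 is a symbol of the matrix, and their germline differs from the GENCODE Ighv2-6 transcript at 1 of 285 bases. All 12 contigs so called carry the Ighv2-6 base there, so at that base they match the transcript call. Ighv1-62-2 and Ighv1-71 differ at 1 of 359 bases, and 10 cells had a contig that named both, with a median of 1 UMI of their own segment. Counts of Ighv1-62-2 and Ighv1-71 are therefore uncertain. Outside its contig's segment a cell still showed other Ighv UMIs in 62.4% of cells, which is why single UMIs were not counted as use. These were 5.68% of all Ighv UMIs of those cells. That share is low for a typical cell, since 18 plasma cell-like cells held 66.8% of the B cells' Ighv UMIs. The leading member held a median of 83.3% of a cell's Ighv UMIs in follicular and 91.0% in GC B-like cells.

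Ighv1, the largest mouse V family, was used by 561 of the 1029 assigned cells (54.5%, interval 51.4 to 57.6%), through 41 of its 48 members. Its share was 52.5, 52.1 and 56.4% in LDHA-sufficient mice 1 to 3 and 55.2, 57.0 and 54.9% in LDHA-deficient mice 1 to 3, so that it was the leading family in each of the 6 mice. Ighv5 followed with 89 cells (8.65%), Ighv3 with 76 (7.39%), Ighv9 with 54 (5.25%), Ighv8 with 49 (4.76%), Ighv2 with 45 (4.37%) and Ighv6 with 42 (4.08%). Ighv14 had 37 cells (3.60%), Ighv10 had 33 (3.21%) and Ighv7 had 25 (2.43%). The other 5 families were rare: Ighv4 had 8 cells, Ighv13 had 4, Ighv11 had 3, Ighv15 had 2 and Ighv12 had 1. Ighv11-2 is known as the segment of many B-1 cells that bind phosphatidylcholine. Its 3 cells lay in the activated or pre-GC B-like class (2) and in an unnamed cluster (1). The activated or pre-GC B-like class also had the B-1 markers Spn, Bhlhe41 and Plscr1 raised. It was named for the list with the larger share of raised markers. The middle families, from Ighv9 to Ighv7, had overlapping ranges over the mice and their order is not fixed by these counts.

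**Figure D1:**
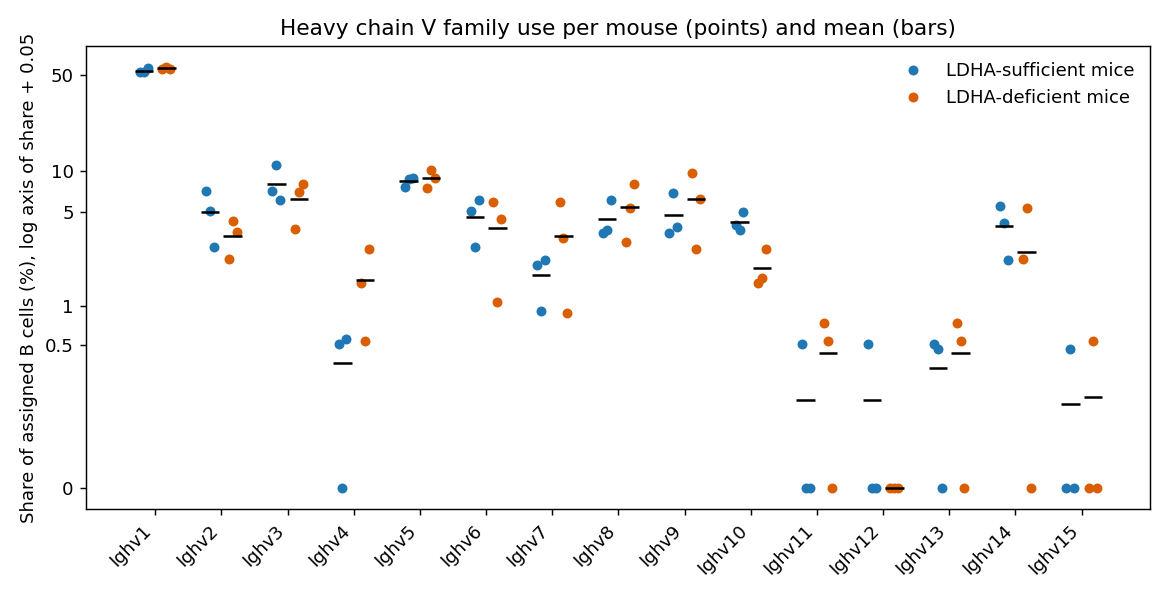
Share of assigned B cells in each of the 15 V families (x axis) on a log axis of percent plus 0.05 (y axis), with 1 point per mouse and a bar at the mean of each genotype's 3 mice. Ighv1 sits above 50% in every mouse, and Ighv10 is the one of the 10 tested families whose LDHA-sufficient points (3.69 to 4.97%) all lie above the LDHA-deficient points (1.49 to 2.65%).

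Within the families use was uneven. Ighv3-6 was used by most cells, 60, with 5.56, 6.91 and 5.52% in LDHA-sufficient mice 1 to 3 and 2.99, 6.45 and 7.08% in LDHA-deficient mice 1 to 3 (mean 5.75% ± 1.51, SD, n = 6). It provided 60 of the 76 cells of family 3. Ighv1-26 came next with 58 cells, at 2.53, 9.68 and 3.87% and at 6.72, 6.45 and 3.54% (mean 5.46% ± 2.65, SD, n = 6). Its highest value was that of LDHA-sufficient mouse 2, and the ranges of the 2 segments overlapped. By contigs the order of the 2 turned, with 65 cells for Ighv1-26 and 58 for Ighv3-6. In those cells the median number of transcript UMIs of the segment itself was 4 for Ighv1-26 and 6.5 for Ighv3-6. The other 8 of the leading 10 were Ighv1-64 (42 cells, 3.23 to 6.08% over the mice), Ighv1-9 (36 cells, 1.84 to 5.31%), Ighv1-72 (36 cells, 2.21 to 5.91%), Ighv9-3 (35 cells, 0.885 to 5.97%), Ighv8-8 (28 cells, 0.746 to 4.42%), Ighv1-80 (28 cells, 1.38 to 3.76%), Ighv10-1 (27 cells, 1.49 to 3.87%) and Ighv6-3 (25 cells, 0 to 3.87%). Neighbours in that order did not differ beyond their spread between mice. Contigs also placed Ighv1-18 (30 cells, 24 by transcripts) above Ighv6-3 (23) and Ighv1-80 (21), so the order is that of the transcript call. In all, 17 segments held 50% of the assigned cells, 38 segments had at least 10 cells, 14 had 1 or 2, and 13 had none.

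The 13 members without a cell included the 3 annotated as pseudogenes, Ighv1-2, Ighv3-2 and Ighv4-2. The other 93 members are annotated as V genes. The minimum of 10 UMIs ran through segments with hardly any cells. Ighv1-83, Ighv1-37, Ighv8-4, Ighv1-38, Ighv2-4 and Ighv3-4 lay just under it, at 9 UMIs, and Ighv1-43 (10 UMIs), Ighv5-15 (10) and Ighv8-6 (11) just over it, and none of these 3 was assigned a cell. Contigs named Ighv1-37, Ighv8-4 and Ighv2-4 in 1 cell each. Among all symbols, 57 had no UMI.

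Use extended over the whole locus. Of 4 equal stretches of the span, the one nearest the J segments, 0 to 598 kb from the first member, holds 30 members of families 2, 3, 4, 5, 7, 9, 11 and 14 and had 258 cells (25.1%, interval 22.5 to 27.8%). The next stretch, with 27 members of 10 families including Ighv6, Ighv10 and the first Ighv1 segments, had 354 (34.4%, interval 31.5 to 37.4%). The third had 150 cells (14.6%, interval 12.5 to 16.9%) over 19 members of Ighv1 and Ighv8, and the one farthest from the J segments had 267 (25.9%, interval 23.3 to 28.7%) over 20 members of those families. The median member had 7, 7, 5 and 10 cells in the 4 stretches. By genotype, the farthest stretch had 25.9% ± 3.73 (SD, n = 3) in LDHA-sufficient and 26.2% ± 5.89 (SD, n = 3) in LDHA-deficient mice.

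**Figure D2:**
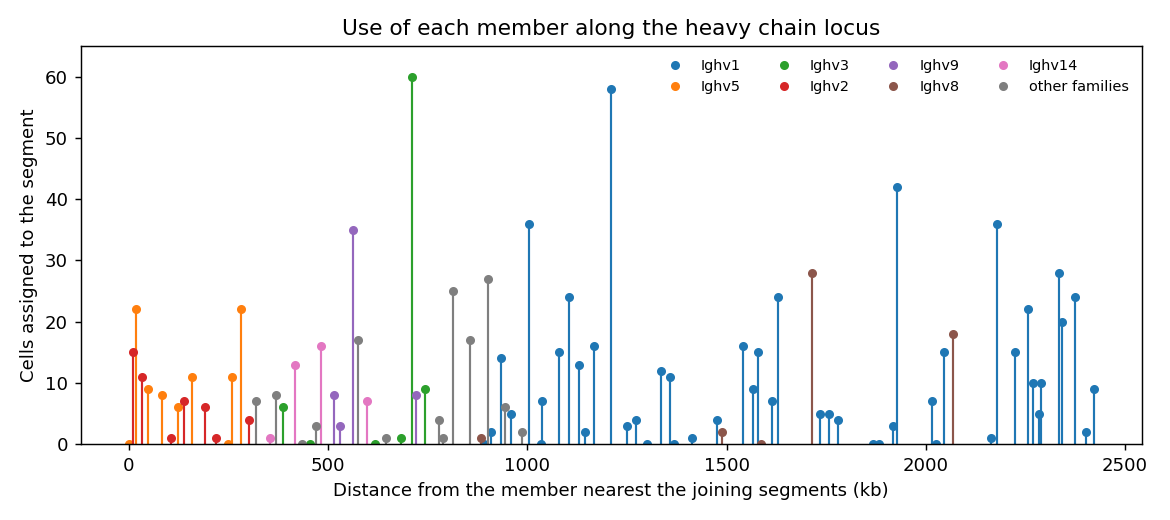
Cells assigned to each of the 96 members (y axis) against distance in kb from the member nearest the J segments (x axis), coloured by family. Families 2, 5, 14, 3 and 9 sit near the J segments, and Ighv1 and Ighv8 reach to the far end, where the farthest stretch still holds 267 of the 1029 cells.

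Counting UMIs would have given another order. Ighv1-42 had most UMIs, 12094, but only 11 cells (rank 37), because 98.2% of its UMIs came from barcodes of the clone that was left out. Ighv2-9 was next with 7226 UMIs and 4 cells. Of the 6142 UMIs of Ighv1-22, 4317 (70.3%) lay in 1 plasma cell-like barcode, and of the 4384 UMIs of Ighv5-12, 4181 (95.4%) did. The same held for Ighv10-1, with 3223 of 4211 UMIs (76.5%) in 1 plasma cell-like barcode, and for Ighv2-3, with 2302 of 4100 (56.1%). In 16 of the 96 members over 50% of the UMIs came from 1 barcode. The 18 plasma cell-like cells, 1.03% of the B cells, held 66.8% of the B cells' Ighv UMIs. Over the 1743 B cells counted, family 2 held 23.6% and family 10 held 11.8% of the Ighv UMIs of members, against 4.37% and 3.21% of assigned cells. Over all barcodes, which include doublets, barcodes without a hashtag and the clone left out, the UMI shares were 18.1% and 6.30%. The barcode with most Ighv2-9 UMIs, 3318, carried more than 1 hashtag.

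**Figure D3:**
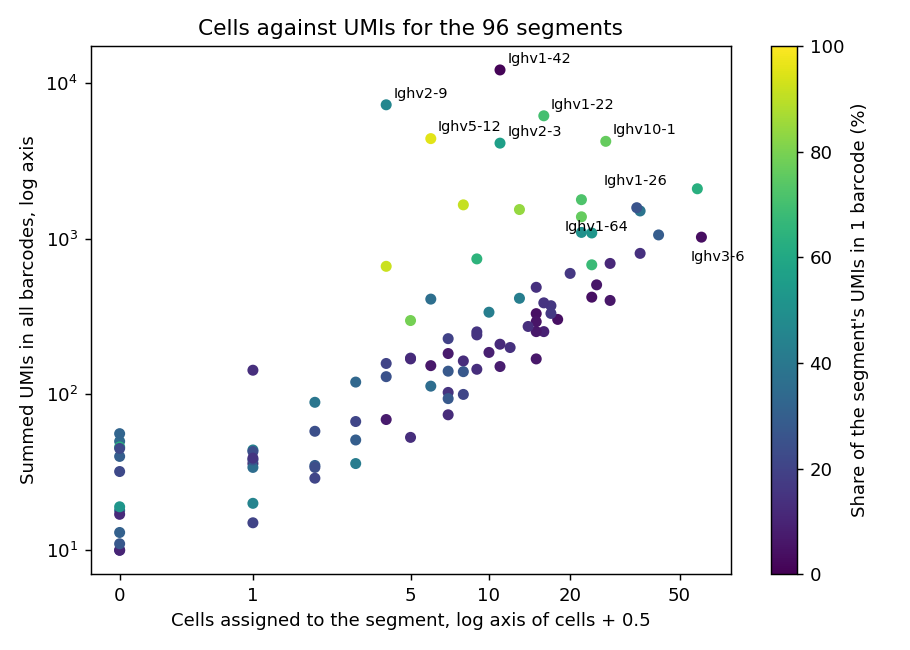
Summed UMIs (y axis, log) against cells assigned (x axis, log of cells plus 0.5) for the 96 members, coloured by the share of a segment's UMIs found in 1 barcode. Ighv2-9, Ighv5-12, Ighv1-22, Ighv2-3 and Ighv10-1 stand above the other segments with like numbers of cells, and Ighv1-42 has the most UMIs, 12094, spread over the barcodes of the clone left out.

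Marginal zone B cells, which respond early to blood-borne antigen, and follicular B cells, which recirculate and feed germinal centres, were compared within each of the 6 mice (103 and 343 assigned cells). The classes were named from markers (Cr2, Cd1d1, Dtx1 and S1pr3 among others for marginal zone B-like cells, Fcer2a, Ighd and Ccr7 among those for follicular B-like cells) in a clustering that left out the immunoglobulin genes. Family 10 had 2.08, 1.64 and 1.69% of follicular B-like cells in LDHA-sufficient mice 1 to 3 and 0, 1.37 and 0% in LDHA-deficient mice 1 to 3. Of marginal zone B-like cells it had 4.17, 6.25 and 18.8% and 10.0, 0 and 14.3%. The share was thus higher in 5 of 6 mice and lower in LDHA-deficient mouse 2, with means of 1.13% ± 0.91 and 8.91% ± 6.87 (SD, n = 6). The counts behind it are 4 and 8 cells. Family 6 followed, with 4.08% ± 2.82 of follicular and 8.82% ± 2.22 of marginal zone B-like cells (SD, n = 6), higher in 5 of 6 mice, from 13 and 9 cells.

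In the exact two-sided sign-flip permutation test of the within-mouse differences no family passed among 10 tested (0% called). Families 10 and 6 each had an exact permutation p of 0.0625 and an adjusted p of 0.3125, where 0.03125 is the smallest exact p that 6 mice allow. A family at that smallest p on its own could not pass after adjustment over 10 families. edgeR's quasi-likelihood test on cells per family, an alternative with the mouse as a block, called 1 of 10 (10%): family 10, log2 difference 2.45, SE 0.83, adjusted p = 0.0491. The call was lost in 12 of 15 alternatives, where log2 differences ran from 0.50 to 2.86 and adjusted p values from 0.0143 to 0.996. Without LDHA-deficient mouse 3 the edgeR adjusted p was 0.323 and with the contig's call it was 0.386. The remaining families had adjusted p of at least 0.521 in the exact test: Ighv1 61.0% ± 6.14 and 56.7% ± 7.48, Ighv5 9.65% ± 3.77 and 5.68% ± 6.40, and Ighv3 5.71% ± 2.96 and 2.11% ± 3.51 (follicular and marginal zone, SD, n = 6). Of 15 segments tested none was called by edgeR (0%) or DESeq2. With edgeR 2 had an unadjusted p under 0.05 (1 with DESeq2): Ighv6-6, with 4 follicular and 6 marginal zone cells, and Ighv5-17, with 10 and 0. These 2 are named after their values were seen.

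**Figure D4:**
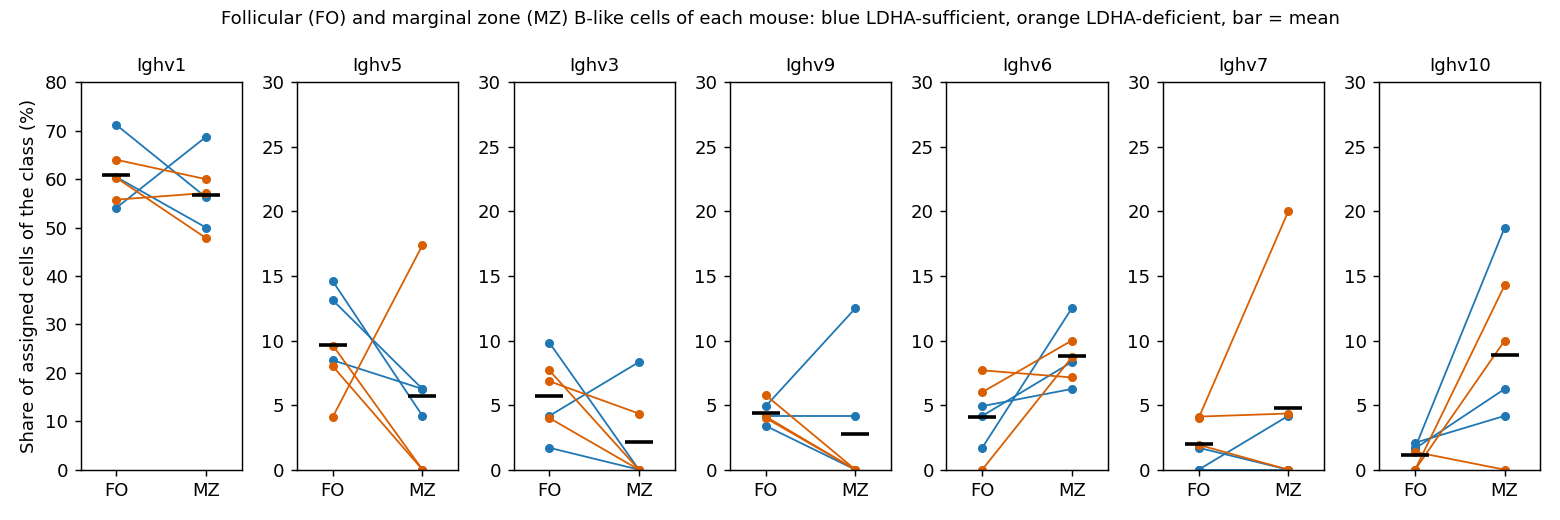
Share of assigned follicular (FO) and marginal zone (MZ) B-like cells (y axis, percent) in 7 families, with a line per mouse and a bar at the mean of the 6 mice; Ighv1 has its own axis. Lines of family 10 end higher in 5 of 6 mice and lines of family 6 in 5 of 6, while those of Ighv1 cross.

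The germinal centre is where V regions are mutated and selected. GC B-like cells (named from Bcl6, S1pr2 and other markers) were compared with the other B cells, plasma cell-like cells left out, in the 5 mice with at least 5 assigned cells in both, 112 against 787 cells. Of their assigned cells, 57 of 115 used Ighv1 (49.6%, interval 40.1 to 59.0%), 15 Ighv3 (13.0%), 9 Ighv14 (7.83%), 8 each Ighv8 and Ighv9 and 6 Ighv5 (5.22%). The 15 of Ighv3 include 5 Ighv3-8 cells of LDHA-sufficient mouse 2, and no contig named Ighv3-8. Over the 5 mice family 14 had 3.24% ± 1.25 of the other B cells and 9.12% ± 7.18 of GC B-like cells, and family 5 had 9.07% ± 0.99 and 4.01% ± 4.48 (SD, n = 5). Family 14 was higher in 4 of 5 mice and family 5 lower in 4 of 5, and each had an exact sign-flip permutation p of 0.125, adjusted p = 0.625. The assigned GC B-like cells numbered 36, 55 and 10 in LDHA-sufficient mice 1 to 3 and 6 and 5 in LDHA-deficient mice 1 and 2. Single cells therefore move the shares, and the direction, of the mice with fewest cells. The smallest p that 5 mice allow is 0.0625, and 0 of 10 families were called (0%). The difference of family 5 took the other sign with the contig's call. No cell of families 4, 11, 12, 13 or 15 was seen among the 115, which allows a share of up to 2.61% for each, taking 3 cells as the limit of a count of 0.

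Of 33 segments tested in the GC comparison, edgeR and DESeq2 called none (0%), and 4 had an unadjusted p under 0.05 with edgeR and 2 with DESeq2. The 4 are named here after their values were seen. Ighv1-75 had 0 GC and 21 other cells, Ighv1-74 had 0 and 13, and Ighv1-82 had 0 and 20. Ighv1-72 had 9 GC cells in 5 mice and 24 other cells (log2 difference 1.85, SE 0.93, edgeR adjusted p = 0.382). Ighv1-72 is known as V186.2, the segment that dominates the response of C57BL/6 mice to the hapten NP. Scaling by the trimmed mean of M values (TMM) called 7 of the 33. Ighv1-26 also had 9 GC cells, all of them in LDHA-sufficient mouse 2.

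Activated or pre-GC B-like cells (Nr4a1, Egr1, Myc and others, 128 cells) set against follicular B-like cells in 6 mice gave 0 of 9 families (0%) by the exact test and 0 of 15 segments (0%) called by edgeR or DESeq2. With 6 mice a family on its own could not pass that exact test after adjustment. Ighv1 had 51.2% ± 12.7 of the activated and 61.0% ± 6.14 of the follicular B-like cells (SD, n = 6), lower in 4 of 6 mice (exact sign-flip permutation p = 0.21875, adjusted p = 0.9375). Ighv9-3 had an unadjusted edgeR p under 0.05, with 7 activated and 5 follicular cells, and an adjusted p of 0.335. The 18 plasma cell-like cells used Ighv1 in 5, Ighv2 in 4, Ighv9, Ighv10 and Ighv14 in 2 each and Ighv3, Ighv4 and Ighv5 in 1 each, over 14 segments, and came from 5 mice. These are too few for a comparison within mice.

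By constant region of the contig, 1065 B cells were IgM or IgD, 39 IgG and 17 IgA. IgG cells numbered 15, 17 and 5 in LDHA-sufficient mice 1 to 3 and 1, 1 and 0 in LDHA-deficient mice 1 to 3, so only LDHA-sufficient mice 1 and 2 had at least 5 assigned IgG cells. Among 31 assigned IgG cells 19 used Ighv1 (61.3%), 4 Ighv5 and 2 each Ighv3, Ighv8 and Ighv9. Among 775 IgM or IgD cells the shares were 53.8% Ighv1, 8.13% Ighv5 and 7.10% Ighv3. No IgG cell used Ighv6, Ighv10 or Ighv14, for which 0 of 31 allows a share of up to 9.68% for each by the same limit of 3 cells. In the 2 mice Ighv1 had 59.2% ± 1.18 of IgG and 53.9% ± 0.37 of IgM or IgD cells (SD, n = 2). The exact test of 2 mice cannot go below p = 0.5, and that was its value (adjusted p = 0.75). None of 9 families and none of 8 segments was called (0%), and 0 segments with edgeR and 1 with DESeq2 had an unadjusted p under 0.05.

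V use was then compared between the genotypes. Of 10 families in at least 10 cells, none passed the exact permutation test (0%). Its smallest p with 3 against 3 mice is 0.1, so none could pass. Family 10 had 4.04, 3.69 and 4.97% in LDHA-sufficient mice 1 to 3 and 1.49, 1.61 and 2.65% in LDHA-deficient mice 1 to 3. The groups did not overlap, which was the case for 1 of the 10 families (10%). The means were 4.23% ± 0.66 and 1.92% ± 0.64 (SD, n = 3, exact permutation p = 0.1, adjusted p = 0.7), from 25 and 8 cells. edgeR gave a log2 difference of -1.15, SE 0.32, with an adjusted p of 0.32. With the contig's call the edgeR log2 difference was -0.84, SE 0.62, with an adjusted p of 0.755. Of the 2 members, Ighv10-1 had 3.03, 3.23 and 3.87% and then 1.49, 1.61 and 1.77%. Ighv10-3 had 5 LDHA-sufficient and 1 LDHA-deficient cells. The family is the sum of these 2, so their direction is not separate support. Ranges of the other 9 families overlapped, among them Ighv1 (53.7% ± 2.35 and 55.7% ± 1.14), Ighv5 (8.39% ± 0.71 and 8.84% ± 1.38) and Ighv3 (8.07% ± 2.64 and 6.23% ± 2.22, SD, n = 3).

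Of 38 segments tested by genotype, edgeR called none (0%), 1 had an unadjusted p under 0.05, and DESeq2 had none of either. Shares of 3 segments did not overlap between genotypes (7.89%): Ighv1-50, Ighv10-1 and Ighv5-16. Ighv1-50 had 1.01, 0.922 and 0.552% in LDHA-sufficient mice 1 to 3 and 3.73, 2.15 and 1.77% in LDHA-deficient mice 1 to 3, or 5 and 11 cells. Its log2 difference was 1.52, SE 0.64, with an edgeR adjusted p of 0.979. A difference in how many cells could be assigned ran alongside. It was 62.3, 67.0 and 66.5% in LDHA-sufficient and 49.4, 57.4 and 48.3% in LDHA-deficient mice (65.3% ± 2.60 and 51.7% ± 4.96, SD, n = 3, exact permutation p = 0.1, the smallest possible). With every cell thinned to 2000 UMIs the means were 45.6% ± 1.45 and 38.7% ± 4.71, with the same p. Median UMIs per cell were 3919 to 4420 in LDHA-sufficient and 3801 to 3855 in LDHA-deficient mice. The part of this gap, and of the uneven GC B-like numbers, in the genotype values was not tested.

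On the UMI scale, summed per mouse over all B cells and fitted across 9125 genes, 118 genes were called by genotype (1.29%, 20 higher and 98 lower in LDHA-deficient mice). Of 51 Ighv genes in that fit 1 was called and 10 had an unadjusted p under 0.05, 4 of them higher in LDHA-deficient mice. Ighv1-50 rose, from 6.65, 10.1 and 8.86 CPM in LDHA-sufficient mice 1 to 3 to 31.9, 21.8 and 14.1 in LDHA-deficient mice 1 to 3, without overlap (log2 difference 1.42, SE 0.31, edgeR adjusted p = 0.0308). Genes called higher made up 0.219% of all genes tested. The call of Ighv1-50 was lost in 7 of 10 alternatives, with log2 differences from 0.92 to 1.65 and adjusted p values from 0.00022 to 0.405. Its smallest difference was that in the B cells outside the GC and plasma cell-like classes (log2 difference 0.92, edgeR adjusted p = 0.405). It was also lost with DESeq2 (adjusted p = 0.0524) and when any 1 LDHA-deficient mouse, LDHA-sufficient mouse 1 or LDHA-sufficient mouse 2 was left out. The median log2 difference of the 51 Ighv genes was -0.06, against 0.01 over all genes. In bulk sums, fewer cells that use a segment and less RNA per cell cannot be told apart.

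Genes that assemble the heavy chain locus or pair with its product were read from a list of 24. Rag1, Rag2, Dntt, which adds bases at the junctions, Igll1, Vpreb1, Vpreb2 and Nhej1 had too few UMIs to be tested. Of the 17 tested, 1 was called, where 1.29% of all genes in the same fit were, and nothing particular to the list is read from 1 gene. Rad21, a cohesin subunit that takes part in looping of chromatin, fell from 224, 220 and 184 CPM in LDHA-sufficient mice 1 to 3 to 136, 129 and 153 in LDHA-deficient mice 1 to 3, without overlap (log2 difference -0.59, SE 0.12, edgeR adjusted p = 0.0188). Next in order of p were Hmgb1 (log2 difference -0.53, edgeR adjusted p = 0.126) and Hmgb2 (log2 difference -1.25, edgeR adjusted p = 0.158), DNA-bending proteins that assist RAG, and Ezh2 (log2 difference -0.83, edgeR adjusted p = 0.248), a histone methyltransferase abundant in GC B cells. DESeq2 called these 3 as well, with adjusted p from 0.0138 to 0.0434. The median of the 17 was -0.13. LDHA-sufficient mice 1 and 2, with 61 and 74 GC B-like cells, had the highest values of all 4 genes. In the B cells outside the GC and plasma cell-like classes Rad21 was not called (log2 difference -0.16, SE 0.11, edgeR adjusted p = 0.959), nor was any of the 17 genes, where 7 of all 8576 genes were, and 3 of the 17 had an unadjusted p under 0.05. There the log2 differences of Hmgb1, Hmgb2 and Ezh2 were -0.03, -0.23 and -0.0012. The call of Rad21 was lost in 6 of 10 alternatives: in that fit and when LDHA-sufficient mouse 1, LDHA-sufficient mouse 2 or any 1 LDHA-deficient mouse was left out (edgeR adjusted p 0.0788 to 0.176).

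V identity, the deposited share of V bases equal to the germline allele, tells which chains were mutated. Of GC B-like cells 77 of 108 (71.3%, interval 61.8 to 79.6%) had an identity under 1, and of plasma cell-like cells 9 of 17. The share was 8.53% in follicular, 6.99% in activated or pre-GC and 2.48% in marginal zone B-like cells (3 of 121, interval 0.514 to 7.07%). These shares include Ighv1-69 and Ighv2-6-1 or Ighv2-6-2, of which every contig carried the same base difference from its germline. Without those segments the share was 4.31% in follicular, 5.67% in activated or pre-GC, 2.48% in marginal zone and 70.5% in GC B-like cells. By isotype it was 84.6% for IgG, 82.4% for IgA and 11.0% for IgM or IgD, and 83.8, 82.4 and 8.05% without them. In GC B-like cells of single mice, 25 of 32, 40 of 52 and 5 of 11 chains were mutated in LDHA-sufficient mice 1 to 3 and 1 of 4, 3 of 4 and 3 of 5 in LDHA-deficient mice 1 to 3. With 4 or 5 chains in a mouse the LDHA-deficient shares have little precision. Of the 28 IgG chains in GC B-like cells 26 were mutated, with a mean identity of 97.8%, and of the 80 IgM or IgD chains 51 were, with a mean of 99.3%.

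**Figure D5:**
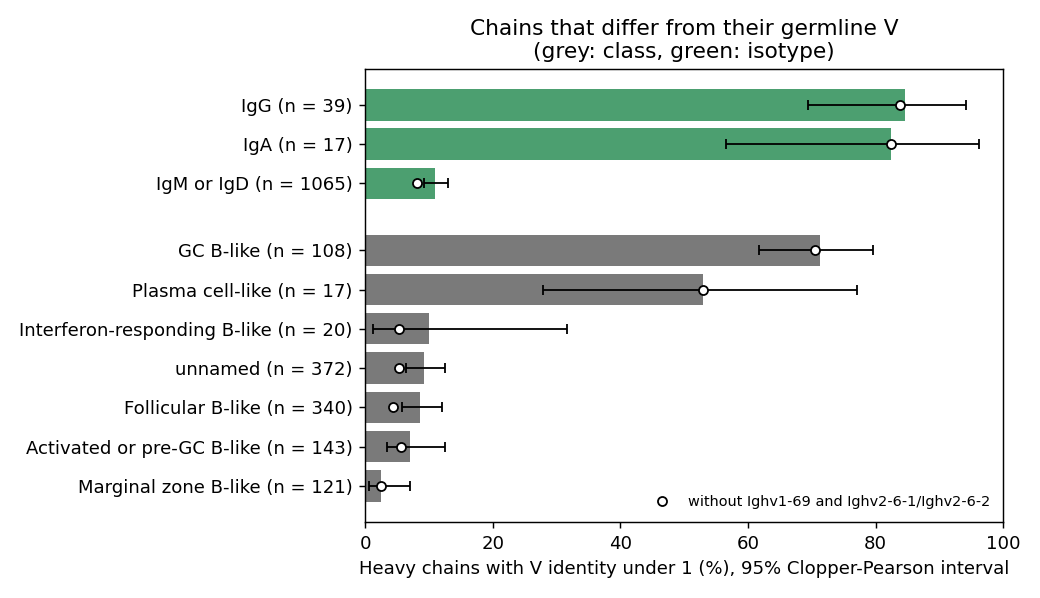
Share of heavy chains with V identity under 1 (x axis, percent, with 95% Clopper-Pearson intervals) by B cell class (grey) and isotype (green), over the cells of all 6 mice; open circles leave out Ighv1-69 and Ighv2-6-1 or Ighv2-6-2. GC B-like cells (71.3%) and switched cells (IgG 84.6%, IgA 82.4%) stand far above marginal zone B-like cells (2.48%), and the circle of follicular B-like cells lies at 4.31%, below their bar at 8.53%.

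In 2 of 58 segments scanned, every contig differed from the assigned germline at the same base, and both are shown because they move the identity of unmutated cells. Bases are counted from 1 at the first germline V base, the germline or contig base that differs is in capitals, and the windows are printed germline first.
Ighv1-69 germline: agttcaagggcaagTccacattgactgta
Ighv1-69 contigs: agttcaagggcaagGccacattgactgta
Ighv2-6-1 germline: ccatcacatgcaccAtctcagggttctca
Ighv2-6-1 contigs: ccatcacatgcaccGtctcagggttctca

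Ighv1-69 carried T202G in 44 of 44 contigs, where the GENCODE transcript of Ighv1-69 has the germline base. Contigs called Ighv2-6-1 or Ighv2-6-2 carried A70G in 12 of 12, and the GENCODE transcript of Ighv2-6 has the contigs' base there. Among segments with at least 10 contig cells the lowest mean identities were those of Ighv1-85 (98.8% ± 1.66, SD over 13 cells) and Ighv1-69 (99.4% ± 0.81, SD over 27 cells). Of the 13 cells of Ighv1-85, 4 belonged to 1 clone at 96.2 to 96.6%, whose contigs had 1 to 4 UMIs. The other 9 averaged 99.9% ± 0.34 (SD over 9 cells). Several segments had no differing base in any cell, among them Ighv6-6 (15 cells) and Ighv8-12 (24 cells). Family 6 as a whole had 1 mutated chain of 38 (2.63%), and family 2 had 17 of 54 (31.5%), or 8 of 45 (17.8%) without Ighv2-6-1 and Ighv2-6-2. Family 1 had 93 of 640 (14.5%), or 66 of 613 (10.8%) without Ighv1-69.

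The families also differed at the junction, the stretch from the conserved cysteine to the conserved tryptophan that contains CDR3. Over all contig cells the mean of the 6 mice was 41.9 ± 0.53 bases (SD, n = 6). Junctions of family 6 averaged 34.9 ± 2.98 bases over the mice (SD, n = 6), and its mouse means ran from 30 to 38.4, all below the lowest mean of all chains, 41.2. Those of family 8 averaged 45.8 ± 1.85 bases (SD, n = 6), from 43.2 to 48.3, all above the highest mean of all chains, 42.6. Family 1 was at 41.8 ± 0.58. These are descriptions without a test, and families 6 and 8 rest on 38 and 61 cells.

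Cells that share a clone number share V, J and a like junction, so each adds to its segment without being a separate choice of it. The 1121 contig cells made up 1069 clones, and 34 clones had at least 2 cells, 86 cells in all. Of the 8 clones with at least 3 cells, 6 held GC B-like cells. The largest, of Ighv5-17, had 7 cells, 6 GC B-like, 6 of them in LDHA-sufficient mouse 2 and 1 in LDHA-deficient mouse 2. A clone of Ighv9-3 had 6 IgM or IgD cells in 3 mice, none GC B-like, and a clone of Ighv1-26 had 5 cells, all GC B-like and all in LDHA-sufficient mouse 2. Since 17 of the 34 clones had cells of at least 2 mice by hashtag, a clone number was not taken as descent within 1 animal. Why clones spanned mice, errors of hashtag or contig calls included, was not tested. The commonest junctions of these 3 clones are shown to compare clones with GC B-like cells with 1 that had none, with the end codons in capitals. Not every contig of a clone carried the junction shown. It was found in 8 of 11 contigs of the Ighv5-17 clone, 3 of 8 of the Ighv9-3 clone and 2 of 6 of the Ighv1-26 clone. The 3 clones had 3, 6 and 5 distinct junctions.
Ighv5-17 and IGHJ1: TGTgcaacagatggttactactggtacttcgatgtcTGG
Ighv9-3 and IGHJ1: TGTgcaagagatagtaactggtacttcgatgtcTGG
Ighv1-26 and IGHJ2: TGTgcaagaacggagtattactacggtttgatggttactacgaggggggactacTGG

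The Ighv9-3 junction is 36 bases long and the Ighv1-26 junction 57. With each clone counted once per mouse and group, no family or segment was called in any of the 5 comparisons by the exact tests of families and the edgeR tests of segments. With so few mice the exact tests could pass no family on its own.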

How the data were processed

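Transcript, hashtag and heavy chain libraries of 1 lane were used. Per the submitters' processing notes, the authors used Cell Ranger 6.0.0, Seurat 4.2.1 and mm10, and per the file headers the matrix came from Cell Ranger 6.0.2. Deposited counts are UMIs per gene, hashtag or contig, not normalized. V identity is a deposited fraction of V bases equal to the germline allele. No source used here names the software that called V segments and clones.

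Barcodes were given to mice by HTODemux (Seurat 5.3.0, quantile 0.99), and barcodes with 1 hashtag, at least 500 genes, at least 1000 UMIs and at most 10% mitochondrial UMIs were kept. No doublet caller was run beyond the hashtags, so doublets within a mouse remain. Cells were clustered without immunoglobulin genes (scanpy 1.11.5, Leiden resolution 0.8, igraph 0.11.9), and classes were named from marker lists, so class names are rebuilt and not the authors'. An unnamed class joins the clusters whose leading genes fitted no list. The clone with most contigs was left out.

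Cells per segment were tested with edgeR 4.0.16 (R 4.3.3, quasi-likelihood, library size the assigned cells, mouse as a block within mice, segments in at least 10 cells, Benjamini-Hochberg adjustment, threshold 0.05), and family shares with exact two-sided permutation tests (Python 3.11.15, adjusted over the families of a comparison). In the all-gene fit UMIs were summed per mouse, with TMM scaling. Scripts were tested on simulated data. There the edgeR segment tests recovered a log2 change of 2 in 35.8% of changed segments between genotypes and in 10% between marginal zone and follicular cells. The share was 17% for GC, 26.25% for activated and 5.13% for IgG cells. Counts of 0 called segments therefore miss many changes of that size. Alternatives were another V call, hashtag call, resolution, scaling, filter or tool (DESeq2 1.42.0), the block left out, and each mouse left out. Comparisons within mice are paired because both classes come from the same mice. Hashtag numbers pair no mice between genotypes.

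The text names every family, the 10 segments with the highest mean share, segments past a threshold (up to 5 each way), segments 3 either side of the UMI minimum with ties, segments swapped between calls, the 2 with the lowest and highest identity, and the 4 assembly genes with the smallest p. Others are named after their values were seen. Members and lists were chosen with earlier results of these data known. Coordinates are from GENCODE vM21 (mm10), matched by gene ID for 96 of 96 members.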

Additional observations from a re-analysis of the deposited data

Results flagged for a closer look

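One heavy chain was found in far more barcodes than any other and was left out of every count of V use. It joined Ighv1-42 to IGHJ3 with an IgA constant region and appeared in 193 contigs, all with the same junction, while the next clone had 16 contigs. The junction, 48 bases with its end codons in capitals, is shown because it identifies the chain.
Ighv1-42 and IGHJ3: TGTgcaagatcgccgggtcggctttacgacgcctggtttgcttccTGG

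Its mean V identity was 98.98%. Of these barcodes 191 were in the transcript matrix, and Ighv1-42 was the leading Ighv gene in all 191. They differed from other cells in hashtags: 133 had none, 24 had more than 1, and 34 had a single hashtag. Of the 34, which carried hashtags of 5 mice, 6 lay in B cell clusters and 28 outside them. Their Ighv1-42 UMIs ran from 29 to 105 (median 61) at a median of 2384 UMIs per barcode, and their contigs had a median of 80 UMIs. The 1121 other B cells with a contig had a median of 5 UMIs of their leading segment and of 4324 UMIs in all. Igha was detected in 100% of the 191 barcodes and in 44.6% of the other B cells with a contig, at 16016 and 2016 CPM. Jchain, the joining chain of secreted IgA, was detected in 100% and 61.7%. Prdm1, the regulator of plasma cell fate, was detected in 3.14% and 2.14%. Xbp1, also on the plasma cell marker list, was detected in 53.9% and 30.3%, at 291 and 115 CPM. Vcam1 and Csf1r, genes of macrophages, were detected in 12.6% and 7.85%, against 0.892% and 0.803% of the other B cells. Cd79a was detected in 96.3%. With this clone kept, family 10 was no longer called by edgeR between marginal zone and follicular B-like cells (adjusted p = 0.0601), and the exact tests of families and the edgeR tests of segments called 0, as without it. Groups of 3 mice are too small for a check of single mice that stand apart.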

How the results depend on the processing

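Of 375 recomputed values of 42 results, 329 kept their direction and their side of the threshold or moved by less than the stated spread. Counts of calls were taken as kept when equal or close to the main count. The tally includes exact tests of families between genotypes, where so few mice let none pass, so those counts of 0 could not move. The same holds for every exact test within 5 or fewer mice, whose smallest p is at least 0.0625. Among these are the main GC and IgG comparisons and each within-mouse comparison with a mouse left out. TMM scaling gave 7 called segments between GC B-like and other B cells in place of 0, and edgeR in place of the exact test gave 1 called family between marginal zone and follicular B-like cells, family 10. In the UMI fit 1 Ighv gene was called, and DESeq2 gave 2, Ighv2-3 and Ighv10-1, both lower in LDHA-deficient mice. For each of these 2 genes 1 plasma cell-like barcode held much of the UMIs, 56.1% for Ighv2-3 and 76.5% for Ighv10-1. Genes with at least 1 UMI gave 15, and the B cells outside the GC and plasma cell-like classes gave 2 (Ighv1-78 and Ighv10-3). Leaving out 1 mouse gave 0 to 8, with 8 without LDHA-sufficient mouse 3. Transcript and contig calls were the same in 98.9% of cells at a share of at least 90% and in 98.1% of barcodes with 1 contig. The difference of family 5 between GC B-like and other cells, -5.06 percentage points, was 4.01 with the contig call and 0.81 at a share of at least 90%. The difference of Ighv1 between IgG and IgM or IgD, 5.26 points, was -0.98 at a share of at least 90% and -0.62 with the isotype read from transcripts. For each of these the cause was not tested.

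With no replicate block, within-mouse comparisons gave 0 called segments in each of the 4, as with the block, and the edgeR call of family 10 was lost (0 families, adjusted p = 0.0651). No paired analysis was possible between genotypes because a mouse has 1 genotype and hashtag numbers pair no mice. The IgG comparison gave no value outside the GC class or with a mouse left out, and for segments none at a share of at least 90% or at least 5 UMIs, nor did segments of marginal zone B-like cells at resolution 1.2, since too few cells remained. With 113 to 217 assigned cells per mouse, shares of families with fewer than 10 cells are mostly counting error.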

Other observations

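Families 6, 7, 10 and 13 share a CDR2 of 30 bases, a length that was grouped after the values of families 6 and 10 had been seen, so what follows is a description. Together they were used by 104 of 1029 assigned cells, and by 22 of 103 marginal zone B-like cells (21.4%, 95% Clopper-Pearson interval 13.9 to 30.5%) against 25 of 343 follicular B-like cells (7.29%, interval 4.77 to 10.6%). The marginal zone share was 20.8, 12.5 and 31.2% in LDHA-sufficient mice 1 to 3 and 40, 13.0 and 21.4% in LDHA-deficient mice 1 to 3, higher than the follicular share in 6 of 6 mice. With the contig's call the shares were 17.4 and 7.06% (6 of 6 mice higher). At a Leiden resolution of 1.2 they were 16.5 and 9.27% (6 of 6), at 0.4 they were 16.3 and 9.72% (4 of 6), and with hashtags called by ratio 12.2 and 8.83% (3 of 6). B-like cells named interferon-responding, from Ifit1 and other markers, exceeded the marginal zone share in some settings. Their share was 10 of 50 cells (20%) at 1.2 and 19 of 112 (16.96%) with hashtags called by ratio. In the main classes it was 3 of 22 (13.6%). There, with the contig's call and at 0.4, the marginal zone share was the highest of any class.

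Ighv3-8 was assigned to 9 cells, and no contig named it. Of these cells 6 had no contig, against 20.6% of all assigned cells, and the contigs of the other 3 named Ighv1-9, Ighv1-42 and Ighv1-47. They included 5 GC B-like cells of LDHA-sufficient mouse 2, with 5 to 21 Ighv3-8 UMIs, and 1 plasma cell-like cell with 478.

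A clone of Ighv1-85 with an IgA constant region had 16 contigs with 1 junction, of 1 to 5 UMIs each. Its 4 B cells came from 3 mice, and in the 2 with a transcript call that call was another segment. The 2 plasma cell-like cells of an IgA clone of Ighv2-9 had contigs of 1591 and 1735 UMIs and the same call by transcripts.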
